A study of Homo sapiens with 3 samples.

Results

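The RNA exosome genes EXOSC1 to EXOSC10, 10 of the 19974 protein-coding genes annotated on chromosomes 1 to 22 and X, were examined for MYC occupancy in the parental line of U2OS, cells from a human osteosarcoma. The genes were chosen by name as subunits of the complex, and every listed MYC peak whose summit lay inside the annotated gene or within 5000 bp of it was taken for that gene. This gave 12 of the 9818 peaks of the list. MYC was mapped by ChIP-Rx, in which chromatin of another species is mixed in before immunoprecipitation as a reference. The study holds 2 anti-MYC immunoprecipitation (IP) libraries, which its design names as biological replicates, and 1 input library without antibody, all from parental U2OS cells with 10% mouse NIH3T3 fibroblasts added after fixation with 1% formaldehyde for 10 min. The authors deposited 1 peak list for these libraries. It has no values per library, so no replicate error and no sequencing depth can be given for any value here, and differences between peaks carry no test.

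The exosome degrades and trims RNA from its 3′ end. In human cells, 6 related proteins (EXOSC4 to EXOSC9) form a ring that has lost its own nuclease activity, 3 RNA-binding proteins (EXOSC1, EXOSC2 and EXOSC3) form a cap over the entry of the central channel, and the catalytic subunits DIS3 and EXOSC10 are attached to this core. In the nucleus and nucleolus the complex trims ribosomal RNA and small nucleolar RNA precursors and removes promoter upstream transcripts, and in the cytoplasm it degrades mRNA together with the SKI complex. MYC binds DNA as a heterodimer with MAX, with a preference for the E-box CACGTG and related letters, and is found at many active promoters.

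All 10 exosome genes had a MYC peak by this rule, whereas 47.7% of all protein-coding genes (9520 of 19974) had one. The fold enrichment over input at the summit of the strongest peak had a median of 7.87 over the 10 exosome genes (range 5.56 to 24.7) and of 8.56 over the 9520 protein-coding genes with a peak (quartiles 6.07 and 12.95), and 4 of the 10 exosome genes lay above 8.56. The median of the exosome genes was the lower one under every rule tried except a flank of 10000 bp. That flank adds peaks at neighbouring genes and gave 11.8 over the 10 exosome genes and 8.77 over all genes with a peak. In the stronger 50% of peaks the median was 8.57 over 7 exosome genes and 11.8 over all genes with such a peak. EXOSC5, EXOSC8 and EXOSC2 had the highest folds of the 10, at 24.7, 14.8 and 13.85. Fold and −log10 q here are the authors' own values for each peak, and the strongest peak of a gene is the one with the highest −log10 q. No list test was made, since the genes were chosen with earlier results of these data known.

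**Figure D1:**
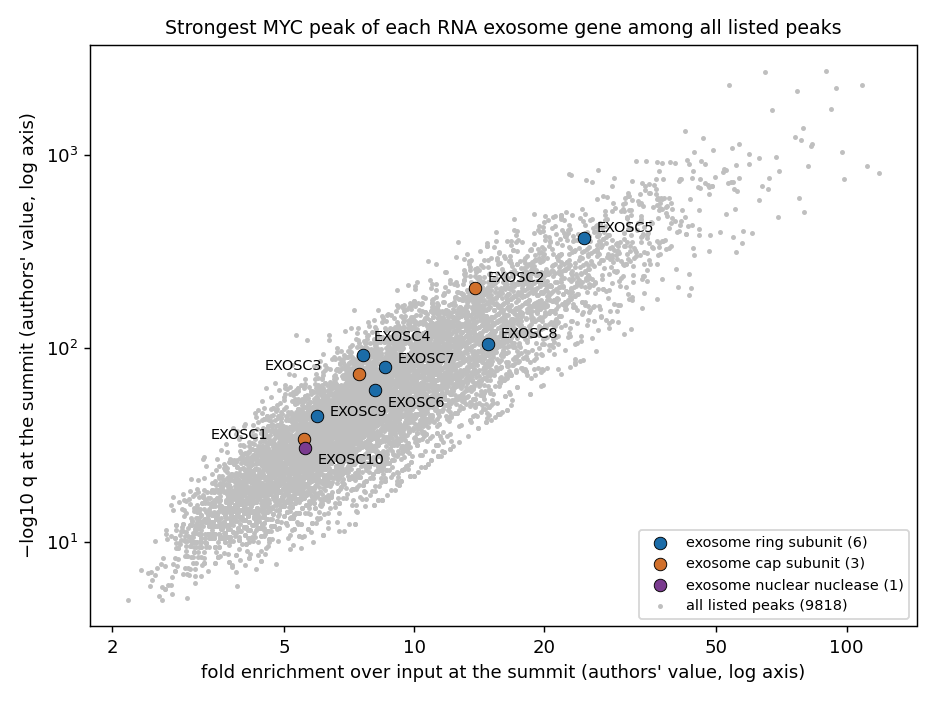
Fold enrichment over input (x, log axis) against −log10 q (y, log axis) at the summit of the strongest MYC peak of each of the 10 exosome genes, coloured by role, and of all 9818 listed peaks in grey. EXOSC5 (fold 24.7) stands above the other exosome genes, while EXOSC1 and EXOSC10 (5.56 and 5.58) lie in the lower part of the cloud.

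The sequences under these peaks were read from promoter windows of RefSeq on GRCh38.p14, which run from 250 bases before to 50 after an annotated start (300 bases). Windows were found for 8 of the 10 exosome genes, all but EXOSC1 and EXOSC4. The 7 stretches below are shown because the MYC summit lies inside each of them: 3 are starts of exosome genes and 4 are starts of neighbours whose peak is also the only peak of an exosome gene. Each runs 5′ to 3′ along transcription of the named gene, from 120 bases before to 29 after its start, which is counted as position 0. Capitals mark the canonical E-box CACGTG wherever it occurs. They also mark a variant form, CACGCG, which on the opposite strand reads CGCGTG where it is found. Both strands were likewise searched for the form CATGTG, which reads as CACATG from the opposite strand, and lastly for CATGCG, read from the opposite strand as CGCATG there.

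EXOSC5 (chr19:41397330-41397479, minus strand): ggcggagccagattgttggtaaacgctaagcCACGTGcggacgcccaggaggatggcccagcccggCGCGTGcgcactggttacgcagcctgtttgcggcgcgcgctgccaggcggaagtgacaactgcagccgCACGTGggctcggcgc
EXOSC6 (chr16:70251911-70252060, minus strand): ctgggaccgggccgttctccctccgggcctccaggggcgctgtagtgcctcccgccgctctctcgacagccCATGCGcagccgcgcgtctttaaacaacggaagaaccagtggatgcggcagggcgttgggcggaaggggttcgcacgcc
EXOSC9 (chr4:121801203-121801352, plus strand): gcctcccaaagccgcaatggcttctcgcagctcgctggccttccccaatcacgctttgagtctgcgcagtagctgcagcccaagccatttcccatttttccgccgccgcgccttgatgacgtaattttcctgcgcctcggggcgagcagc
ZDHHC16, neighbour of EXOSC1 (chr10:97446055-97446204, plus strand): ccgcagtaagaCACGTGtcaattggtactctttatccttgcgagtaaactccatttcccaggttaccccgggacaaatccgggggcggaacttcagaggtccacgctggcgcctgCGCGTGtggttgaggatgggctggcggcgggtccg
ALG5, neighbour of EXOSC8 (chr13:36999338-36999487, minus strand): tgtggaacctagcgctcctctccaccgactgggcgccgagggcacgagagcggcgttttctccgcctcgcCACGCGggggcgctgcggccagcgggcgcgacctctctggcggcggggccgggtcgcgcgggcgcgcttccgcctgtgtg
ZDHHC3, neighbour of EXOSC7 (chr3:44976145-44976294, minus strand): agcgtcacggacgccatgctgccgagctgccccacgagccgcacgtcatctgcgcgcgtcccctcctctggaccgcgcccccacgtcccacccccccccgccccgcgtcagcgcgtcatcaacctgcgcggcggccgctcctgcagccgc
EXOSC10-AS1, neighbour of EXOSC10 (chr1:11099555-11099704, plus strand): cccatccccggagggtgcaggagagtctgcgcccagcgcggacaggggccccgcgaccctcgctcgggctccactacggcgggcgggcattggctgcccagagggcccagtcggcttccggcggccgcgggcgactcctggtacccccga

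The EXOSC5 stretch holds CACGTG at positions -89 and 14 and CGCGTG at position -54, and its summit lies at position 3. The EXOSC6 stretch has no CACGTG, and the first base of its CATGCG, at position -49, is the summit base. The EXOSC9 stretch has none of the E-box letters, with its summit at position 18. In the ZDHHC16 stretch the CGCGTG begins 8 bases before the summit and the CACGTG 112 bases before it. In the ALG5 stretch the CACGCG begins 21 bases before the summit. The ZDHHC3 and EXOSC10-AS1 stretches have none of the E-box letters, with summits at positions -113 and -12. A match of letters is a description and does not show a binding site.

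The ring subunits held both the highest peak of the complex and a wide range of heights. EXOSC5, the human counterpart of yeast Rrp46, had 1 peak on chromosome 19 (41396977 to 41397892, 916 bp), at a fold of 24.7, with −log10 q at 373. It ranked 403 by fold and 259 by −log10 q among the 9818 peaks, and 94.5% of protein-coding genes with a peak had a lower fold. Its summit lay 3 bp inside the start of EXOSC5 (chromosome 19, 41386374 to 41397359) and 462 bp from the start of BCKDHA, a branched-chain ketoacid dehydrogenase gene transcribed away from it. EXOSC8, the counterpart of Rrp43 and the ring neighbour of EXOSC5, had 1 peak on chromosome 13 (36998958 to 37001073), at a fold of 14.8, with −log10 q at 106. That peak was 2116 bp wide, wider than 99.1% of all peaks. Its summit lay 1390 bp upstream of the start of EXOSC8 (chromosome 13, 37000786 to 37009614) and 29 bp from the start of ALG5, a glucosyltransferase gene of protein N-glycosylation on the opposite strand. The peak itself reached over both starts.

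EXOSC6 and EXOSC7, the counterparts of Mtr3 and Rrp42 and neighbours in the ring, had peaks of nearly equal fold. EXOSC6 (chromosome 16, 70246778 to 70251940) had a fold of 8.13, with −log10 q at 60.6, in a peak of 401 bp (70251713 to 70252113), and 8.70% of listed peaks were narrower. Its summit lay 49 bp upstream of the start and 309 bp from the far end of AARS1, the alanyl-tRNA synthetase gene on the same strand, whose own start is 37517 bp away. EXOSC7 (chromosome 3, 44976244 to 45012668) had a fold of 8.57, with −log10 q at 80.6, in a peak of 712 bp (44976063 to 44976774). Its summit lay 43 bp inside EXOSC7 and 113 bp from the start of ZDHHC3, a palmitoyltransferase gene that begins 69 bp away on the opposite strand.

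EXOSC9 and EXOSC4, the counterparts of Rrp45 and Rrp41, form the third neighbouring pair of the ring. EXOSC9 (chromosome 4, 121801323 to 121817021) had the lowest strongest peak of the 6 ring genes, at a fold of 5.97 (−log10 q 44.5, 121801043 to 121801494, 452 bp), and its summit lay 18 bp inside the start with no other gene end within 5000 bp. EXOSC4 (chromosome 8, 144064056 to 144080648) was the only one of the 10 with more than 1 peak. Its strongest peak had a fold of 7.61 (−log10 q 92.2, 1081 bp wide) and lay inside the annotated gene, 2033 bp from one end. A second peak had a fold of 6.78, 3276 bp outside the opposite end and 3181 bp from an end of OPLAH, the 5-oxoprolinase gene. The other had a fold of 4.06 and lay 1958 bp outside EXOSC4 and 28 bp from an end of GPAA1, a gene of glycosylphosphatidylinositol anchor attachment. Strand was not used here for EXOSC4 or EXOSC1, so which end is the start is not stated for either. Of all protein-coding genes with a peak, 83.6% had exactly 1 and 2% had 3 or more.

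The cap subunits spanned folds from 5.56 to 13.85. EXOSC2, the counterpart of Rrp4 (chromosome 9, 130693760 to 130704894), had a fold of 13.85 and ranked 756 by −log10 q, at 206, with its summit 156 bp inside the gene (peak 130693560 to 130694437, 878 bp). EXOSC3, the counterpart of Rrp40 (chromosome 9, 37779714 to 37785092), had a fold of 7.44 (−log10 q 73.8), with its summit 172 bp inside (peak 37784683 to 37785402, 720 bp). Neither summit had an end of another protein-coding gene within 5000 bp. EXOSC1, the counterpart of Csl4 (chromosome 10, 97435909 to 97446006), had the lowest fold among the strongest peaks of the 10, 5.56, with a −log10 q of 34.1 (peak 97445965 to 97446466, 502 bp). Its summit lay 172 bp outside EXOSC1 and 3 bp from the start of ZDHHC16, another palmitoyltransferase gene, which begins 168 bp beyond the end of EXOSC1. Among the strongest peaks of the 10 genes, the highest and lowest folds, those of EXOSC5 and EXOSC1, differed 4.44-fold.

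EXOSC10, the counterpart of Rrp6 and the nuclease subunit found mainly in the nucleus and nucleolus, had a low peak. On chromosome 1 (gene 11066618 to 11099869, peak 11099343 to 11099943, 601 bp) its fold was 5.58 and its −log10 q 30.6, the lowest −log10 q among the strongest peaks of the 10, and 19.7% of protein-coding genes with a peak had a lower fold. Its summit lay 206 bp inside EXOSC10 and 12 bp from an annotated start of EXOSC10-AS1, a long noncoding RNA transcribed from the opposite strand. The peak covers both starts, and the list does not say to which transcript such a peak belongs.

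Most summits lay close to the gene start. Of the 8 exosome genes with a known strand, 7 had their strongest summit within 500 bp of the gene start, 6 of them on the transcribed side. The largest distance among these 7 was 206 bp. The peak covered the start in all 8, a count for which no share over all genes was computed. Over the 7879 protein-coding genes with a peak and a known strand, 63.3% had their strongest summit within 500 bp of the start. The median distance to the start was 102.5 bp for the 8 exosome genes and 273 bp for the 7879 genes. Of the summits within 500 bp of a start, 46.2% lay on the transcribed side over all genes. With so few exosome genes, and none of these values replicated, the difference is given without a test.

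**Figure D2:**
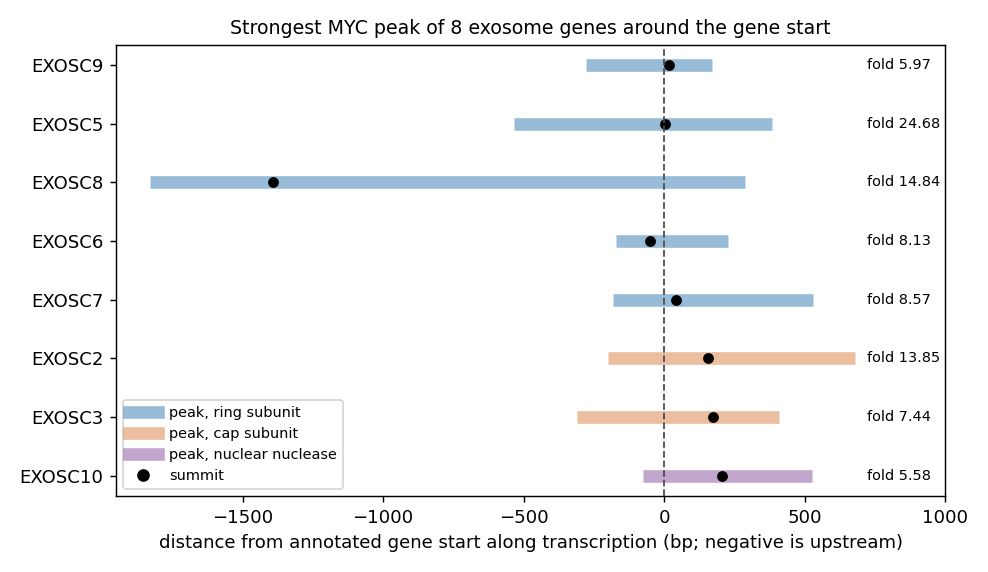
Extent (bar) and summit (black point) of the strongest MYC peak of the 8 exosome genes with a known strand, by distance in bp from the annotated gene start along transcription, coloured by role. In 7 genes the summit lies within 206 bp of the start, and in EXOSC8 it lies 1390 bp upstream in a peak of 2116 bp that reaches the start.

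Many of these peaks lay near a second gene. For 6 of the 10, EXOSC1, EXOSC4, EXOSC5, EXOSC6, EXOSC7 and EXOSC8, a summit lay within 1000 bp of an end of another protein-coding gene. For EXOSC1, EXOSC8 and that EXOSC4 summit, at GPAA1, it was nearer to the neighbour than to the exosome gene. The matching share over all protein-coding genes was not computed, so the count of 6 is not read as particular to the exosome. When each peak was given only to the nearest protein-coding gene, 8 of 10 exosome genes kept one, all but EXOSC1 and EXOSC8, beside 38.3% of all protein-coding genes. With the gene start alone, 7 of the 8 exosome genes of known strand had a summit within 500 bp, beside 34.4% of the 15813 genes of known strand. With either end of the gene and 1000 bp, 8 of 10 had one, all but EXOSC4 and EXOSC8, beside 37.6% of all protein-coding genes. Among the stronger 50% of peaks, those with a −log10 q of at least 47.8, 7 of 10 had one, all but EXOSC1, EXOSC9 and EXOSC10, beside 27.7%. All 10 also had a peak when any base of it was counted in place of the summit (47.9% of all protein-coding genes), when a −log10 q of at least 10 was asked for (47.2%) and with a flank of 10000 bp (50.9%). With summits inside the gene only, 7 of 10 had one, all but EXOSC1, EXOSC6 and EXOSC8, beside 25.9%. Under each of these rules the share of exosome genes was above that of all genes.

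**Figure D3:**
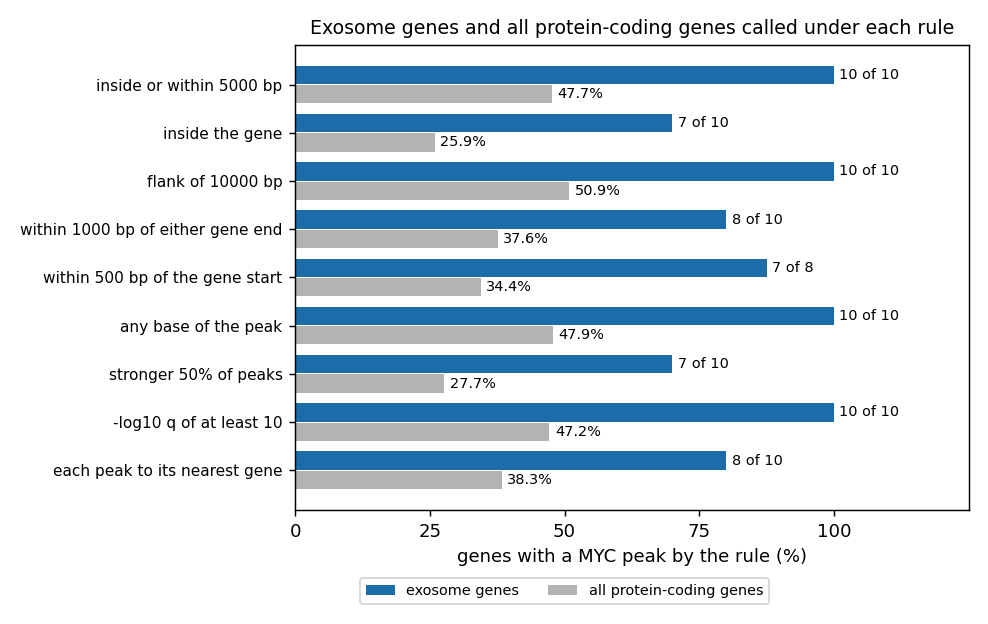
Share of the exosome genes (blue, with counts) and of all protein-coding genes (grey) that have a MYC peak, in percent, under each rule for giving peaks to genes. The exosome share is between 70% and 100%, and the share of all genes is between 25.9% and 50.9%.

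The limit of 5000 bp decided little for the count. The summit farthest outside an exosome gene that still counted was the EXOSC4 summit at 3276 bp (fold 6.78), and the nearest that did not count lay 6415 bp from EXOSC10. That one (fold 41.4, −log10 q 754) lay 185 bp from an end of SRM, the spermidine synthase gene, and was higher than any peak given to the complex. The next lay 6809 bp from EXOSC9 at CCNA2, the cyclin A gene (fold 10.3), 7792 bp from EXOSC2 at ABL1 (fold 4.62) and 9843 bp from EXOSC1 at PGAM1, a glycolysis gene (fold 13.3). With a flank of 10000 bp these would be counted, and the median fold of the 10 would be 11.8.

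The E-box letters were not shared across the exosome promoter windows. Of the 8 exosome promoter windows, only that of EXOSC5 held CACGTG, and it held the letters 2 times. Among 13793 protein-coding promoter windows taken at the annotated start of the gene, 8.95% held CACGTG and 0.906% held it 2 or more times. Among the 2848 of these windows that also held a MYC summit the shares were 17% and 2.28%. Any of the 4 E-box forms was found in 4 of the 8 exosome windows, those of EXOSC5, EXOSC6, EXOSC3 and EXOSC10, beside 34.2% of all windows and 49.6% of windows with a summit. The windows of EXOSC2, EXOSC7, EXOSC8 and EXOSC9 held none of them. The peaks of EXOSC8 and EXOSC1 did hold E-box letters, near the starts of ALG5 and ZDHHC16. In EXOSC3 the match, CACGCG at position -226, lay 398 bp from the summit, and in EXOSC10 the matches lay 228 to 243 bp from it, with CGCATG and CATGCG overlapping each other. All these matches lay within the listed peaks. As the summits of EXOSC2, EXOSC3 and EXOSC10 lie over 50 bases past the start, the bases under them were outside the windows of their genes, and for EXOSC10 the summit falls in a window of EXOSC10-AS1 that holds no E-box form.

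In the windows with a summit, the highest fold there had a median of 8.06 in the 2363 windows without CACGTG (quartiles 5.72 and 11.8). It was 11.2 in the 420 windows with 1 copy (7.73 and 18.6) and 9.36 in the 65 windows with 2 or more (7.09 and 15.9). The EXOSC5 fold of 24.7 lay above the upper quartile of each class. EXOSC6, EXOSC7 and EXOSC9, without CACGTG and with a summit in their window, had folds of 8.13, 8.57 and 5.97, all between the quartiles of the windows without it.

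The GC box GGGCGG, searched on both strands, was found in 7 of the 8 exosome windows, all but EXOSC9, beside 58.5% of all windows and 72.7% of windows with a summit. The 8 windows had a median GC content of 61.5% (52.3% in EXOSC9 to 76% in EXOSC7), beside 62.7% over all windows and 66.3% over those with a summit. They held a median of 26 CpG dinucleotides (19 in EXOSC2 to 43 in EXOSC7), beside 22 over all windows and 29 over those with a summit. EXOSC5, with the highest fold, had 24 CpG and 64% GC, and EXOSC7, with the most of both, had a fold of 8.57.

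Of the genes of 18 proteins that work with the exosome, 13 had a peak and 5 did not, with a median fold of 8 (3.20 to 23.4). DIS3, the main catalytic subunit, was counted here among the partners and not among the 10 exosome genes. It had a fold of 9.05, and its cytoplasmic relative DIS3L one of 16.4. Among nuclear cofactors, the helicase gene MTREX had a fold of 4.52, MPHOSPH6, which helps dock that helicase, 8.87, and the ribosome biogenesis ATPase gene NVL 6.59. C1D, the gene of an EXOSC10-binding protein, had no peak. The poly(A) polymerase genes TENT4A and TENT4B of the adenylation route had folds of 23.4 and 14.7, while their partner ZCCHC7 had no peak.

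The nuclear exosome targeting genes ZCCHC8 and RBM7 had folds of 9.88 and 5.48. The genes of the route for polyadenylated nuclear RNA were low, with 5.07 for ZFC3H1 and 3.20 for PABPN1 and no peak for ZC3H3, whose nearest summit lay 6661 bp away. Of the cytoplasmic SKI genes, SKIC3 had a fold of 8 and SKIC8 one of 5.31. SKIC2, a helicase gene, and HBS1L had no peak. SKIC2 and LSM2 lie in a stretch of chromosome 6 of 5171544 bp, between summits at 28399808 and 33571352, that holds 173 protein-coding genes and no listed summit, so a missing peak there says nothing about a single gene. Outside that stretch 48.1% of protein-coding genes had a peak.

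Other routes of mRNA decay had medians near that of the exosome. Of 19 genes of decapping and 5′-to-3′ decay 15 had a peak (78.9%), with a median fold of 8.40. XRN2, the nuclear 5′ exonuclease (fold 31.5), DCP1A, a decapping activator (15.0), and LSM5, an Lsm ring subunit (8.97), were strongest by −log10 q. The LSM5 summit, that of the strongest of its 2 peaks, lay 4930 bp inside its gene. EDC3, EDC4, LSM2 and LSM14A had no peak. Of 16 deadenylation genes 13 had a peak (81.2%), with a median fold of 8.96. The strongest by −log10 q were CNOT9 (fold 18.6), CNOT8 (11.3) and CNOT1 (20.2) of the CCR4-NOT complex, which is not their order by fold. CNOT3, CNOT4 and PARN had no peak. These shares stand beside 100% for the exosome subunits, 72.2% for their partners and 47.7% for all protein-coding genes. The median annotated length was 11060.5 bp for exosome genes and 24170.5 bp for all protein-coding genes, so the exosome genes were the shorter ones by this measure.

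**Figure D4:**
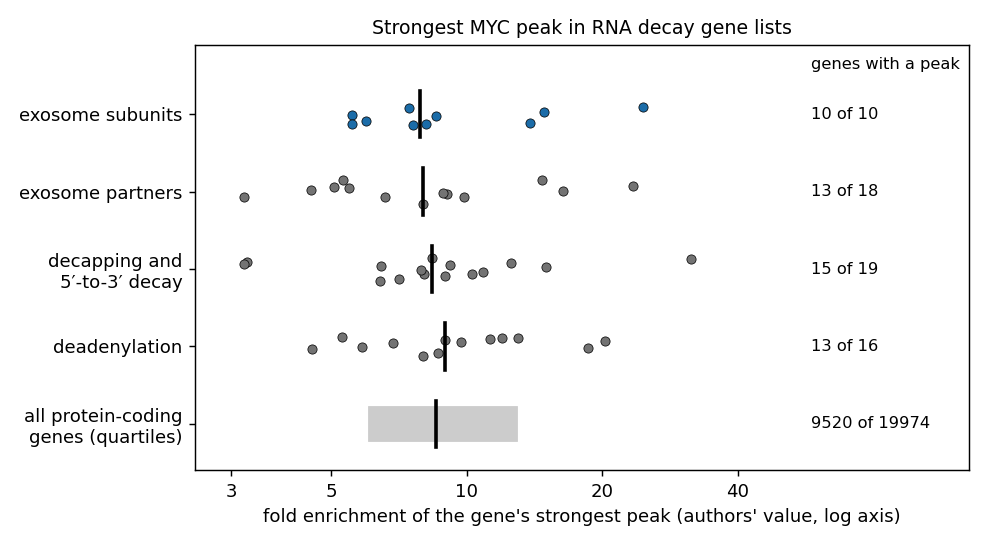
Fold enrichment of the strongest MYC peak (x, log axis) of each gene with a peak, by list, with the median as a black line and the number of genes with a peak on the right. The bottom row gives the median and quartiles over all 9520 protein-coding genes with a peak. The medians of the 4 lists lie between 7.87 and 8.96, beside 8.56 for all genes.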

How the data were processed

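Per the labels' protocols, fixed U2OS and NIH3T3 chromatin was sheared to 200 to 500 bp, and 5 ng of DNA went into each library, amplified over 9 cycles. Per the submitters' processing notes, cutadapt, Bowtie2, SAMtools, Picard and MACS2 were used, with hg19, mm10 and hg38 named. No source used here gives versions, settings, the scaling by mouse reads, or whether peaks were called on pooled IP libraries. The build of the list, hg38, comes from its name. The authors deposited, per peak, a linear fold ratio of IP over control, a −log10 p-value, a −log10 q-value and a score. The deposited start, end and summit offset give positions, with other units not used. Values per library were not analysed, so depth is unknown.

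Genes were spans of RefSeq on GRCh38.p14, with strand from the RefSeq promoter table where it lists the gene. A gene with several peaks took the one of highest −log10 q, ties by fold. Genome positions are 1-based. Motifs were counted on both strands. Placement and motif counts were tested on simulated data. Python 3.11.15, pandas 2.3.3, numpy 2.4.6 and matplotlib 3.10.9 were used. The members and lists were chosen with earlier results of these data known. All members, all partners, and of each other list the 3 strongest genes and those without a peak were named, with the nearest protein-coding neighbour of each member peak. Comparisons of GC content, CpG, peak width and fold by E-box copies were chosen after seeing the data.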

Additional observations from a re-analysis of the deposited data

How the results depend on the processing

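The count of exosome genes with a peak, 10 of 10, was between 7 and 10 under the 8 other rules tried. Within 500 bp of the start only the 8 genes of known strand could be counted, and 7 of them had one. The share of all protein-coding genes was 25.9% with summits inside the gene only and 27.7% in the stronger 50% of peaks, against 47.7%, and between 34.4% and 50.9% under the other rules. The median fold of the exosome genes, 7.87, against 8.56 for all genes with a peak, was 7.61 with summits inside the gene only (all genes 8.13), 11.8 with a flank of 10000 bp (8.77), 7.79 within 1000 bp of either end (8.31), 8.13 within 500 bp of the start (7 genes, all genes 8.34) and 8.57 in the stronger 50% of peaks (11.8). It was thus higher than that of all genes with the wider flank only. The flank of 10000 bp adds peaks at neighbouring genes such as SRM. The stronger 50% leaves out EXOSC1, EXOSC9 and EXOSC10, whose −log10 q of 34.1, 44.5 and 30.6 lies below the limit of 47.8. The median fold was 7.87 with any base of the peak, a −log10 q of at least 10, each peak given to its nearest gene, and the highest fold taken as strongest. Leaving out the stretch of chromosome 6 without a summit, chosen after seeing the data, gave 48.1% for all genes and kept 13 of 17 partners, 15 of 18 decapping and 5′-to-3′ decay genes and 13 of 16 deadenylation genes. No paired analysis was possible because the only file is 1 peak list without values per library, and for the same reason no replicate could be left out. A gene's start in use was not measured, and a peak at neighbouring starts cannot be given to one gene.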

Other observations

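The annotation holds 3 pseudogene copies of exosome genes, and none of them had a summit within 5000 bp. The matching share over all pseudogenes was not computed, so this is not read as particular to these copies. The nearest summits lay 18390 bp from EXOSC8P1 on chromosome 6, 74235 bp from EXOSC3P2 on chromosome 19 and 84437 bp from EXOSC3P1 on chromosome 21.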
